A study of Drosophila melanogaster with 24 samples.

Results

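The stage programme of hyperoxia-selected Drosophila melanogaster was read from 6 arrays of adult flies and 6 arrays of larvae, which are 12 of the 24 arrays of the series. The arrays were chosen by their labels alone: every array labelled as coming from a hyperoxia-selected population was used, and no measured value entered the choice. The flies descend from a pool of wild-type isogenic lines and were bred over generations at oxygen levels that were raised step by step, which gave the strain the study calls SO2A. There were 3 such populations, each kept in a chamber of its own, and each population gave both stages with 2 arrays per stage. The adult samples were whole flies, 25 males and 25 females pooled, cultured in the hyperoxia chamber. The larval samples were whole larvae of the third instar; their number, sex, exact age and the oxygen level at collection are stated in none of the sources used. Nothing in the labels says whether the 2 arrays of a population came from separate cultures, so the populations are the units known to be separate and p-values over arrays also carry a spread that may be technical. The other 12 arrays hold the same stages of 3 control populations bred from the same pool in room air, and they serve here only to ask where the selected flies had another stage difference.

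Between the last larval instar and the adult the fly is rebuilt. A pulse of the steroid hormone ecdysone ends larval life, most larval tissues are removed, and the adult body is made from imaginal discs and histoblasts that were set aside earlier. Toward the end of its last instar the larva is a feeding and storing animal with a growing cuticle, large salivary glands that make glue, and a fat body that fills with serum proteins for use in metamorphosis. The adult adds compound eyes, flight muscles, and the ovaries, testes and glands of reproduction.

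The 12 arrays were scaled by the authors to a common mean, and the trimmed mean of all signals, with 2% left out at each end, was 2500.1 on every one of them. The median signal lay between 551.1 and 678.8 on the adult arrays and between 483.5 and 613.6 on the larval arrays. Signals (log2 scale) of 2 adult arrays correlated at 0.915 to 0.94 across probe sets, those of 2 larval arrays at 0.93 to 0.947, and those of an adult with a larval array at 0.752 to 0.794. Probe sets on one array are not independent replicates, and these values describe only how alike the arrays were. Of the 100 probe sets with the highest mean signal in adults, 53 were also among the 100 highest in larvae.

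Of 18769 probe sets tested, 9860 differed between the stages at an adjusted p under 0.05 (limma with population as a block), 6347 of them higher in adults and 3513 higher in larvae. A call below means such an adjusted p together with a difference of at least 2-fold. By that rule 4066 probe sets (21.7%) were higher in adults and 2435 (13%) were higher in larvae. At 4-fold or more the numbers were close, 1277 and 1195, and at 16-fold or more they were 338 (1.8%) for adults and 314 (1.67%) for larvae. The 6 adult and 6 larval signals did not overlap for 5244 of the 6501 calls, which is 80.7%. Over all 18769 probe sets, called or not, 4713 were separate with adults higher and 2589 with larvae higher. The calls were made on these same signals, so the share among them only describes the calls. These were whole animals, so a lower signal can come from fewer cells of a type or from less RNA in each, and these cannot be told apart here.

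The balance between the directions moved with the scaling of the arrays. With the values as deposited, 62.5% of the calls were higher in adults. After centring each array on its median the share was 54.6%, with 3366 calls against 2802, and after quantile normalization it was 49.9%, with 2904 against 2912. The median difference over all probe sets, adult minus larva on the log2 scale, was 0.30 as deposited, 0.14 after centring and 0.08 after quantile normalization. Of the calls, 5801 kept their direction as calls after centring, 5222 did so after quantile normalization, and none (0 in each case) became a call in the other direction. Small differences below are therefore read against this shift.

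**Figure D1:**
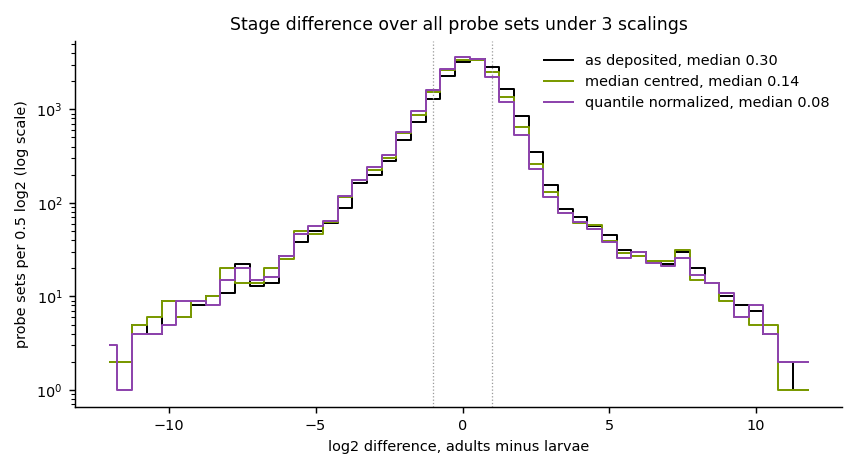
Number of probe sets (log scale) by their log2 difference, adults minus larvae, in steps of 0.5, with the signals as deposited, median centred or quantile normalized. The medians are 0.30, 0.14 and 0.08, the dotted lines mark a 2-fold difference, and the tails beyond 16-fold lie nearly on top of each other.

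The widest gaps were between genes that read near the bottom of the scale in one stage and near its top in the other. Because low signals carry little information, the gap was also taken after raising every signal under the 20th percentile, 91 units, to that level. Yp2, a yolk protein, read 140614 to 173299 (median 162301) in adults and 15.2 to 525 (median 155) in larvae, a log2 difference of 10.54 (SE 0.67, adjusted p = 7.61e-07), or 9.91 with the floor. CG16826, a gene known here only by its number, read 80718 to 102370 (median 87209) in adults and 19.1 to 45.3 (median 33.4) in larvae (log2 11.46, SE 0.17, adjusted p = 1.51e-10; 9.94 with the floor). The other genes among the 12 widest toward adults were CG14645, Acp98AB, Cp19, Cp16, EbpII, Cp36, Mst57Da, fit, dec and CG34324, with differences of 9.07 to 9.73 after the floor. They are chorion proteins of the eggshell (Cp19, Cp16, Cp36, dec), products of the male accessory glands and ejaculatory bulb (Acp98AB, Mst57Da, EbpII), a female fat body gene (fit) and 2 genes with a number only.

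Toward larvae the 12 widest gaps included 4 glue proteins and 1 fat body storage protein. Sgs3, a salivary glue protein, read 72672 to 130820 (median 101586) in larvae and 15 to 33.1 (median 27.9) in adults, a log2 difference of -11.93 (SE 0.19, adjusted p = 2.82e-10), or -10.12 with the floor. CG34282 read 136572 to 181450 (median 141759) in larvae against 19.5 to 96.5 (median 53.2) in adults (log2 -11.56, SE 0.29, adjusted p = 3.86e-09; -10.64 with the floor). The rest of the 12 were Sgs7, Sgs5, Sgs4, the mucin Muc55B, the fat body protein Fbp2, the acyl-CoA binding protein Acbp4, and CG5084, CG31789, CG7290 and CG13460, with -9.34 to -10.25 after the floor. None of these 24 genes had overlapping arrays, which the rule for naming them required. Among the calls of 16-fold or more, 65 of 338 read under 91 units on all 6 larval arrays and 20 of 314 read under it on all 6 adult arrays.

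**Figure D2:**
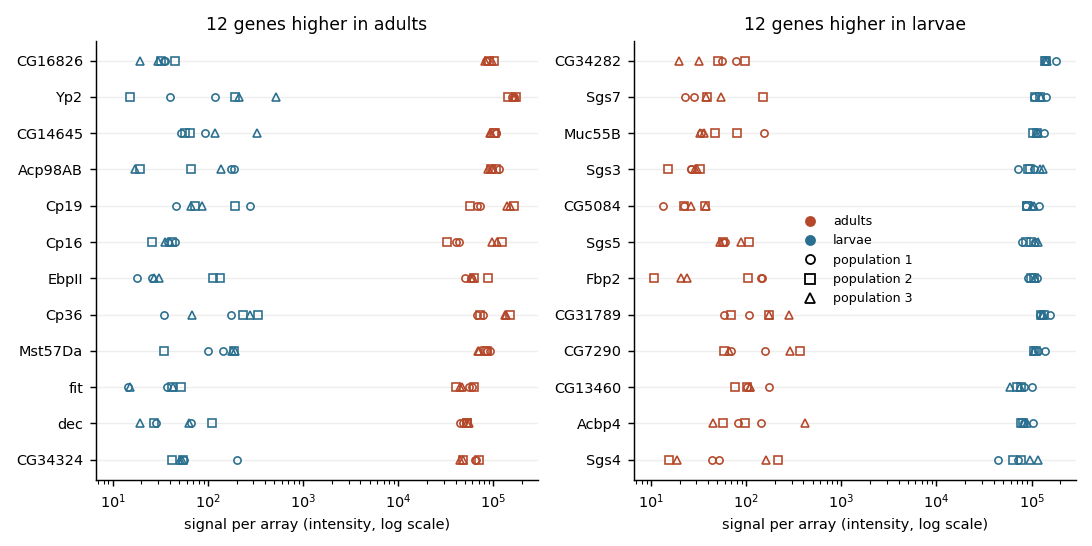
Signal of each array (log scale) for the 12 genes with the widest gap toward adults and the 12 with the widest gap toward larvae, coloured by stage and marked by population. Signals of the lower stage reach at most 525, in Yp2, and those of the higher stage are at least 32371, in Cp16.

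Apart from dj, every measured marker of adult females, adult males, the eye or flight muscle was called higher in adults. Every measured marker of larval fat body or salivary gland was called higher in larvae. The blood cell markers Hml, NimC1, PPO1 and PPO2 were called higher in larvae, but blood cells are not confined to that stage, and Hml read 508 to 1654 in adults. Most prepupal genes were not called. Arr2, an arrestin of the photoreceptors, read 5987 to 36390 (median 27663) in adults against 50.4 to 392 (median 306) in larvae, and Act88F, an actin used in flight muscle, 847 to 2972 (median 1483) against 41.4 to 694 (median 281). Lsp1beta, a larval serum protein, read 131569 to 172294 (median 136386) in larvae and 781 to 4088 (median 1385) in adults. Lsp2, its relative, was not confined to larvae, with 134079 to 165596 in larvae and 23672 to 40804 in adults. The sperm gene dj read 518 to 1830 in adults and 281 to 1509 in larvae and was not called (log2 0.97, SE 0.37, adjusted p = 0.0525). Of genes known from the prepupa, Edg84A read 11.8 to 54 in larvae and 29.9 to 211 in adults and was not called, and ImpE2 read 326 to 2386 in larvae against 58.8 to 374. Eig71Ee read 34675 to 87666 in larvae against 129 to 440 in adults.

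Genes of the female germ line and egg were nearly all higher in adults. Over all 11996 named genes, each taken at its brightest probe set, 3212 (26.8%) were called higher in adults and 1893 (15.8%) higher in larvae, and the median log2 difference was 0.37. All 3 yolk proteins, which are secreted into the blood and taken up by the oocyte, were higher in adults with a median of 8.71. All 19 genes of the vitelline membrane and chorion were called, with a median of 8.24. Cp16 read 32371 to 121619 (median 70243) in adults and 26 to 44.8 (median 38.9) in larvae, and its adult arrays were spread almost 4-fold, with both arrays of population 1 and the second of population 2 at 32371 to 43245 and the other 3 at 97240 or more. The same 3 arrays were the lowest for Cp19, at 56335 to 71904 against 138656 or more.

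Of 27 germline and maternal regulators, 22 were higher in adults and none in larvae, with a median of 3.87. The mRNA of osk, which sets up the germ plasm at the posterior pole, read 33322 to 49238 (median 37156) in adults and 15.2 to 225 (median 88.3) in larvae (log2 8.89, SE 0.53, adjusted p = 5.25e-07). For nanos, a translational repressor needed for the abdomen and the germ line, the adult signals were 28947 to 36059 and the larval ones 78.6 to 186 (log2 8.09, SE 0.20, adjusted p = 4.04e-09). The thioredoxin dhd, known for its role in the egg at fertilisation, read 119388 to 142023 (median 132941) in adults and 317 to 618 (median 396) in larvae, a log2 difference of 8.32 (SE 0.15, adjusted p = 6.03e-10). Adult and larval arrays stood apart without overlap for osk, nanos and dhd.

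Genes of DNA replication went in the same direction as the egg genes, and the tissue they came from was not tested. All 28 measured genes of replication and S phase were called higher in adults, with a median of 2.08. Orc1, the large subunit of the origin recognition complex, read 7450 to 10043 (median 8990) in adults and 488 to 642 (median 553) in larvae (log2 3.97, SE 0.11, adjusted p = 5.52e-09). The licensing factor dup stood at 11047 to 18184 against 1263 to 1722 (log2 3.13, SE 0.13, adjusted p = 5.56e-08). After quantile normalization 25 of the 28 were still called. Nucleolar proteins and RNA polymerase I subunits were higher in adults for 12 of 17, with a median of 1.68. Nop60B, the pseudouridine synthase of the nucleolus, read 28415 to 48844 in adults and 2400 to 3281 in larvae (log2 3.72, SE 0.11, adjusted p = 1.06e-08).

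Ribosomal proteins of the cytosol differed little between the stages as a group, with a median of -0.05 that became 0.17 after quantile normalization. Of 40, 3 were called higher in adults (RpS5b, RpS28-like and RpLP0-like) and 1 in larvae, and all of these carry the name of a second copy or of a relative. RpS28-like was not called without population 2 (1.76, adjusted p = 0.0517). RpS5b, a copy used in the ovary, read 63577 to 80294 (median 70499) in adults and 1677 to 2367 (median 2104) in larvae, a log2 difference of 5.14 (SE 0.12, adjusted p = 2.21e-09). RpL22-like, a copy known from the testis, went the other way, with 928 to 2032 in larvae and 397 to 698 in adults (log2 -1.57, SE 0.18, adjusted p = 4.32e-05). Mitochondrial ribosomal proteins were called higher in adults for 25 of 69 and higher in larvae for none (0), with a median of 0.90, but 11 calls were left after quantile normalization and 15 after centring. For mRpL20 the adult signals were 7988 to 11040 and the larval signals 2407 to 3837 (log2 1.63, SE 0.12, adjusted p = 2.43e-06).

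Seminal fluid genes were higher in adults for 33 of 34, with a median of 7.53. Acp53C14b, made in the male accessory gland, read 39200 to 61770 (median 47353) in adults and 15.1 to 29.9 (median 20.2) in larvae (log2 11.19, SE 0.16, adjusted p = 1.51e-10), or 9.06 with the floor. EbpII of the ejaculatory bulb stood at 50408 to 87071 against 17.8 to 135 (log2 10.51, SE 0.33, adjusted p = 1.21e-08; 9.26 with the floor).

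Genes of sperm and testis behaved unlike the seminal fluid genes. Of 41, only 15 were called higher in adults, 4 were higher in larvae and 22 were not called, and the median was 0.72. Mst87F, a protein of the sperm tail, read 5712 to 13039 (median 8453) in adults and 612 to 2047 (median 1352) in larvae (log2 2.74, SE 0.32, adjusted p = 4.91e-05). The testis beta-tubulin betaTub85D had larval signals of 3355 to 7788 and adult signals of 8913 to 15033 (log2 1.11, SE 0.21, adjusted p = 0.00121). Toward larvae went nht, Prosalpha4T1, sa and mia, of which sa, nht and mia belong to the meiotic arrest genes that switch on the programme of the spermatocyte. The signals of mia were 2207 to 3086 (median 2595) in larvae and 564 to 960 (median 712) in adults (log2 -1.86, SE 0.15, adjusted p = 3.85e-06). Calls toward larvae in this list fell to 2 without population 2 or without population 3.

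Of 25 genes of the eye and phototransduction, 14 were higher in adults and 3 in larvae, with a median of 1.83. Arr2 differed by 6.30 (SE 0.60, adjusted p = 1.03e-05) and retinin, a protein of the corneal lens, by 4.69 (SE 0.35, adjusted p = 1.99e-06). Within the adults both arrays of population 1 were the lowest for Arr2, at 8814 and 5987 where the other 4 read 26788 to 36390. The genes higher in larvae were ninaD, a scavenger receptor for carotenoid uptake, with 1377 to 3053 in larvae and 44.5 to 178 in adults (log2 -4.54, SE 0.37, adjusted p = 3.59e-06), Galphaq, the G protein of the visual cascade that is also used elsewhere in the body, with a difference of -1.61 (SE 0.14, adjusted p = 5.92e-06), and santa-maria, a second scavenger receptor of carotenoid transport, with -1.15 (adjusted p = 2.14e-05).

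Odorant-binding proteins split between the stages, with 19 of 48 called higher in adults and 15 in larvae. Obp56g read 15558 to 45552 (median 23028) in adults and 32.5 to 93.6 (median 55.8) in larvae (log2 8.66, SE 0.26, adjusted p = 1.05e-08; 8.0 with the floor). Obp51a stood at 14615 to 19719 against 11.5 to 239 (log2 8.67, SE 0.54, adjusted p = 6.93e-07; 7.30 with the floor). In the other direction Obp99b read 66954 to 143343 (median 118224) in larvae and 1338 to 3452 (median 2511) in adults (log2 -5.57, SE 0.20, adjusted p = 2.98e-08).

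Receptors for odours and tastes gave almost no calls. Of 166 odorant, gustatory and ionotropic receptors 10 were called higher in adults and 2 in larvae, and with the floor at 91 units 1 call was left in each direction, and many of these probe sets read near the bottom of the scale. The calls toward larvae were 0 without population 1 and 4 without population 2 or 3. Ir7c kept its call with the floor, with 862 to 1273 (median 988) in adults and 14.2 to 94 (median 29.4) in larvae (log2 5.12, SE 0.41, adjusted p = 3.33e-06; 3.48 with the floor). The median of the receptors was 0.06 as deposited and turned to -0.15 and -0.10 after quantile normalization and centring. Neuronal and synaptic genes were higher in adults for 9 of 32, close to the 26.8% of all named genes, and in larvae for none (0), beside 15.8%. Without population 3 the adult count was 5 and after quantile normalization 4. Clock genes were higher in adults for 6 of 11, with a median of 1.34. The blue light receptor cry read 1885 to 2728 (median 2325) in adults against 42.5 to 226 (median 141) in larvae (log2 4.25, SE 0.31, adjusted p = 1.99e-06), and the transcription factor Clk 586 to 982 (median 775) against 30.4 to 55.3 (median 47.1), which is a difference of 4.11 (SE 0.15, adjusted p = 3.07e-08), or 3.09 with the floor.

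Muscle genes divided between the stages. Of 29 sarcomere genes 7 were higher in adults and 10 in larvae, with a median of -0.42, beside 26.8% and 15.8% of all named genes. TpnC41C, a troponin C, read 14702 to 25521 (median 18170) in adults and 35.6 to 230 (median 89.4) in larvae (log2 7.69, SE 0.42, adjusted p = 2.84e-07), whereas its relative TpnC73F read 16742 to 32414 (median 24763) in larvae and 1699 to 2650 (median 2008) in adults (log2 -3.54, SE 0.18, adjusted p = 1.73e-07). The actin Act79B stood at 22626 to 38972 in adults against 310 to 520 in larvae (log2 6.13, SE 0.17, adjusted p = 6.59e-09). Tm1, a tropomyosin, was higher in larvae, with 38220 to 68378 against 10802 to 15743 (log2 -2.03, SE 0.15, adjusted p = 1.74e-06).

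In each list of energy metabolism most genes were not called. Glycolysis had 4 of 17 genes higher in adults, close to the 26.8% of all named genes, and none (0) in larvae, beside 15.8%. The tricarboxylic acid cycle had 0 and 1 of 13, and the respiratory chain with ATP synthase 8 and 1 of 74. The respiratory chain had a median of -0.24 as deposited and of 0.20 after quantile normalization, so the sign of the group depended on the scaling. Its 1 call toward larvae, COX5B (51453 to 74877 against 24753 to 40408 in adults, adjusted p = 0.000545), fell under 2-fold without population 1 (log2 -0.78) and after quantile normalization (-0.38, adjusted p = 0.0695). Of 14 genes of glycogen and trehalose, 6 were called higher in adults as deposited, beside 26.8% of all named genes. The count was also 6 after quantile normalization and with the floor, and it was 2 after centring. Hex-C, a hexokinase, read 4871 to 9233 (median 6718) in adults and 408 to 984 (median 522) in larvae (log2 3.50, SE 0.25, adjusted p = 1.41e-06). The copy COX7AL2 of a cytochrome oxidase subunit stood far from its complex, with 13197 to 19126 (median 16530) in adults against 29 to 191 (median 153) in larvae (log2 7.04, SE 0.40, adjusted p = 3.71e-07). ScsbetaG, a subunit of succinyl-CoA synthetase, was higher in larvae (log2 -1.92, SE 0.13, adjusted p = 1.28e-06). The glycerol phosphate dehydrogenase Gpdh1 differed by -0.34 (SE 0.12, adjusted p = 0.0361), and UGP by -0.07 (SE 0.22, adjusted p = 0.819), neither of them 2-fold.

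Lipid genes went both ways. Desaturation and elongation of cuticular hydrocarbons in females involves Fad2 and eloF, and both were higher in adults: Fad2 read 3193 to 14369 (median 10278) against 17 to 252 (median 146) (log2 6.29, SE 0.66, adjusted p = 2.08e-05), and eloF 1722 to 5657 (median 4317) against 167 to 498 (median 286) (log2 3.69, SE 0.36, adjusted p = 1.39e-05). Of 6 elongases, 4 were called higher in adults and none (0) in larvae. The lipid droplet protein Lsd-1, a perilipin, was higher in larvae with 25964 to 31959 against 4119 to 5410 in adults (log2 -2.56, SE 0.10, adjusted p = 4e-08), and AkhR, the receptor of adipokinetic hormone, 4991 to 6897 against 552 to 1136 (log2 -2.72, SE 0.15, adjusted p = 3.65e-07). Over the 21 genes of fat storage 4 were called in each direction, beside 26.8% toward adults and 15.8% toward larvae over all named genes.

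Larval fat body and salivary gland products were higher in larvae. All 4 measured serum and storage proteins were called, with a median of -8.21, and 10 of 11 glue genes, with a median of -9.92. Fbp2 read 91288 to 113649 (median 106999) in larvae and 10.8 to 147 (median 64.2) in adults (log2 -11.09, SE 0.59, adjusted p = 2.47e-07; -9.90 with the floor). Fbp1, the receptor that takes serum proteins up into the fat body, varied among the larval arrays from 18179 to 100355 (median 51705), with both arrays of population 3 the highest, and stood at 31 to 87.8 in adults (log2 -9.84, SE 0.42, adjusted p = 7.85e-08; -9.07 with the floor). Of the 9 Eig71E genes, which the salivary gland turns on late in the response to ecdysone, 2 were called higher in larvae: Eig71Ee (log2 -7.48, SE 0.23, adjusted p = 1.06e-08) and Eig71Eh (log2 -2.32, SE 0.61, adjusted p = 0.00871). Eig71Eh read at most 276 units on any array and was not called with the floor (-0.71), without population 1 (-2.03, adjusted p = 0.0624) or without population 2 (-1.73, adjusted p = 0.128).

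**Figure D3:**
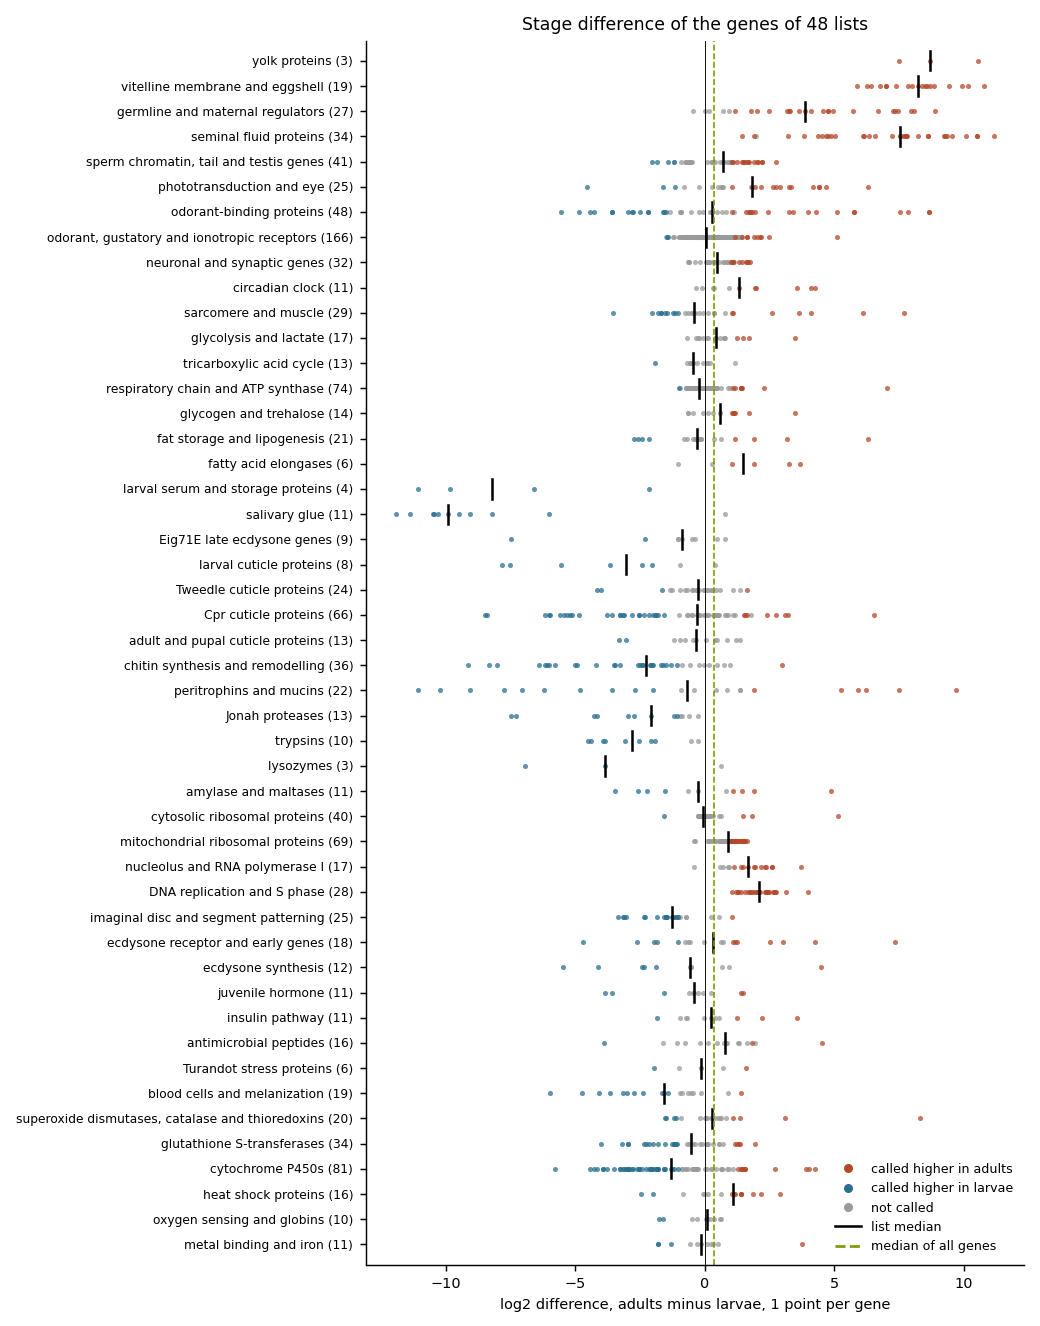
Log2 difference, adults minus larvae, of every measured gene on 48 lists, 1 point per gene at its brightest probe set, coloured by call, with the number of genes in brackets. Black bars are list medians and the dashed line is the median of all genes, 0.37. Eggshell, yolk and seminal fluid genes lie at the far right, glue and storage proteins at the far left, and lists such as odorant-binding proteins, mucins and Cpr cuticle proteins reach far in both directions.

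Cuticle genes were called more often toward larvae than toward adults, most clearly for larval cuticle proteins and chitin genes. Larval cuticle proteins were higher in larvae for 6 of 8 (median -3.05). Genes of chitin synthesis and remodelling were so for 27 of 36, with 1 the other way (median -2.25). Cpr proteins, which bind chitin through a shared domain, were so for 27 of 66, with 8 the other way and 31 not called. Over all named genes 15.8% were called higher in larvae and 26.8% higher in adults. Of 24 Tweedle proteins 3 were higher in larvae, close to the share of all named genes. Another 1 was higher in adults, and the rest were not called. Cda9, a chitin deacetylase, read 17801 to 28319 (median 23670) in larvae and 19.6 to 80.2 (median 44.1) in adults (log2 -9.15, SE 0.29, adjusted p = 1.27e-08; -7.98 with the floor). The chitin-binding protein obst-I stood at 10965 to 17242 against 19 to 74.9 (log2 -8.32, SE 0.28, adjusted p = 1.98e-08; -7.21 with the floor). Cht8, a chitinase, was the call in the adult direction, with 1934 to 3289 against 268 to 398 (log2 2.98, SE 0.11, adjusted p = 4.42e-08).

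Cpr genes of one family name, 49A, lay at both ends. Cpr49Ab read 3735 to 6147 (median 4236) in adults and 36.2 to 60.8 (median 50.7) in larvae (log2 6.55, SE 0.16, adjusted p = 3.37e-09; 5.64 with the floor). Cpr49Ac read 16572 to 35740 (median 29913) in larvae and 19.4 to 589 (median 49.4) in adults (log2 -8.48, SE 0.58, adjusted p = 1.27e-06; -7.55 with the floor), the value of 589 being the first array of population 2. Cpr49Af went with Cpr49Ac (log2 -8.42, SE 0.31, adjusted p = 3.78e-08; -7.61 with the floor) and Cpr49Ae with Cpr49Ab (log2 3.22, SE 0.35, adjusted p = 2.8e-05). The adult and pupal cuticle genes gave only 2 calls of 13, both toward larvae, where the share over all named genes was 15.8%. These were Pcp (log2 -3.31, SE 0.37, adjusted p = 3.5e-05) and Edg91 (log2 -3.05, SE 0.51, adjusted p = 0.000584).

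Gut proteases were mostly higher in larvae. Jonah proteases, digestive enzymes of the midgut, were called for 9 of 13 and trypsins for 8 of 10, and none (0) went the other way. Jon66Cii read 51837 to 190241 (median 142248) in larvae and 334 to 1223 (median 676) in adults (log2 -7.48, SE 0.34, adjusted p = 1.11e-07), and Jon66Ci 126792 to 160896 against 374 to 1644 (log2 -7.28, SE 0.32, adjusted p = 8.94e-08). Their probes were not checked for cross-hybridization with near-identical copies of the family. LysS, a lysozyme of the gut, stood at 80625 to 150977 (median 113297) in larvae and 735 to 1204 (median 835) in adults (log2 -6.95, SE 0.19, adjusted p = 5.92e-09). Maltases were divided, with 4 of 11 genes of amylase and maltase called in each direction. Over all named genes 26.8% were called higher in adults and 15.8% higher in larvae. Mal-A7 differed by 4.86 (SE 0.31, adjusted p = 8e-07) and Mal-A3 by -3.46 (SE 0.18, adjusted p = 2.63e-07).

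Mucins and peritrophins, which line the gut or coat other epithelia and the egg, also went both ways, 6 of 22 higher in adults and 10 in larvae. The adult count is close to the 26.8% of all named genes, while 15.8% of those were higher in larvae. Muc68D read 18499 to 32245 (median 22721) in adults and 15.1 to 62.4 (median 25.8) in larvae (log2 9.70, SE 0.31, adjusted p = 1.34e-08; 7.99 with the floor). Muc55B read 103909 to 134164 (median 113552) in larvae and 32.9 to 154 (median 41.5) in adults (log2 -11.07, SE 0.35, adjusted p = 1.34e-08; -10.17 with the floor). Neither gene had overlapping arrays.

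Patterning genes of the imaginal discs were higher in larvae for 18 of 25, with a median of -1.27. The count was 12 without population 1, 14 without population 2 and 16 without population 3. For inv, the partner of engrailed in posterior compartments, the larval signals were 216 to 314 (median 279) and the adult signals 11.8 to 86 (median 27.8) (log2 -3.34, SE 0.36, adjusted p = 2.52e-05; -1.58 with the floor). The eye and leg gene dac stood at 768 to 1007 against 35.1 to 289 (log2 -3.15, SE 0.45, adjusted p = 0.00019). Delta, the Notch ligand, was the 1 call toward adults (log2 1.04, SE 0.25, adjusted p = 0.00562), and it was not called after quantile normalization (0.58), after centring (0.89) or without population 1 (0.73, adjusted p = 0.089).

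The transcription factors of the ecdysone response took opposite sides. In insects br is known as a determinant of the pupa and Eip93F (E93) as a determinant of the adult. The signals of br were 7538 to 14489 (median 10180) in larvae and 146 to 525 (median 451) in adults (log2 -4.71, SE 0.33, adjusted p = 1.32e-06). Eip93F read 842 to 1404 (median 1168) in adults and 4.2 to 12.6 (median 7.25) in larvae, a log2 difference of 7.35 (SE 0.29, adjusted p = 4.91e-08) that the floor reduced to 3.67. The competence factor ftz-f1 read 11245 to 18718 (median 14356) in adults and 530 to 975 (median 793) in larvae (log2 4.26, SE 0.17, adjusted p = 4.84e-08). Of the 18 receptors and early genes 7 were higher in adults and 5 in larvae, but only 3 of the former without population 1 and 3 of the latter without population 3.

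Enzymes of ecdysone synthesis went both ways. The P450s spo and spok are copies that act at the same early step, spok in the larval prothoracic gland and spo in the embryo and the ovary. The signals of spok were 1722 to 4307 (median 2154) in larvae and 15.2 to 150 (median 68.2) in adults (log2 -5.49, SE 0.50, adjusted p = 8.07e-06; -4.59 with the floor), and those of spo 690 to 1007 (median 855) in adults and 7 to 113 (median 61.9) in larvae (log2 4.48, SE 0.69, adjusted p = 0.000315; 3.16 with the floor). The last enzyme of the pathway, shd, which makes the active hormone in peripheral tissues, read 5560 to 6921 in larvae and 283 to 381 in adults (log2 -4.12, SE 0.11, adjusted p = 5.85e-09). Of 12 genes of the pathway 5 were higher in larvae, or 3 without population 1, and spo was the 1 call toward adults.

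Of 11 juvenile hormone genes 3 were higher in larvae and 2 in adults, beside 15.8% and 26.8% of all named genes. Jhe, the esterase that degrades the hormone, read 774 to 1084 in larvae against 15.9 to 219 in adults (log2 -3.86, SE 0.67, adjusted p = 0.000745; -2.88 with the floor). Among insulin pathway genes Ilp8, a relaxin-like peptide that discs send out in larvae and that is also made in the ovary, read 948 to 2284 (median 1815) in adults and 52.7 to 318 (median 148) in larvae (log2 3.58, SE 0.41, adjusted p = 3.96e-05), and ImpL2, an insulin-binding protein, was higher in larvae (log2 -1.83, SE 0.14, adjusted p = 2.68e-06). The insulin list as a whole had a median of 0.25 as deposited, 0.09 after centring and -0.21 after quantile normalization.

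**Figure D4:**
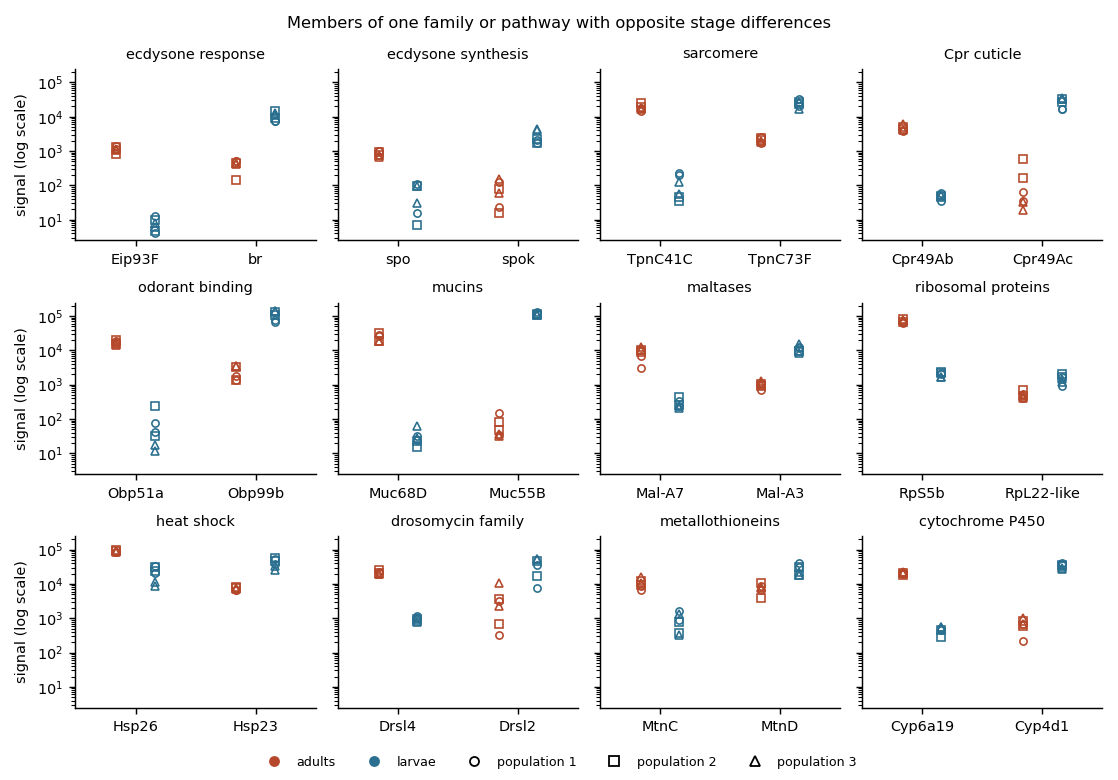
Signal of each array (log scale) for 12 pairs of genes from one family or pathway, in adults (red) and larvae (blue); the first gene of each pair was called higher in adults and the second higher in larvae. Symbols mark the 3 populations. The adult and larval arrays are separate in every gene shown except Drsl2, where the highest adult array reads above the lowest larval one.

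Blood cell and melanization genes were higher in larvae for 11 of 19, with a median of -1.59. He, the hemocyte marker hemese, read 3025 to 5472 (median 4408) in larvae and 14.7 to 178 (median 98.8) in adults (log2 -5.96, SE 0.52, adjusted p = 6.32e-06; -5.10 with the floor). PPO1, the prophenoloxidase of crystal cells, stood at 17046 to 21223 (median 18646) against 407 to 1207 (median 742) (log2 -4.73, SE 0.25, adjusted p = 2.54e-07). The JNK bsk (log2 -1.34, SE 0.11, adjusted p = 4.06e-06) and the TNF ligand egr (log2 -1.79, SE 0.10, adjusted p = 2.67e-07) were also higher in larvae.

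Antimicrobial peptides, which are secreted from the fat body on infection, showed no common stage difference. Of 16 peptides 2 were called higher in adults, 1 in larvae and 13 not at all, and the median was 0.78. DptB, a diptericin, read 30030, 1245, 44732, 941, 30364 and 34694 on the 6 adult arrays (arrays 1 and 2 of populations 1, 2 and 3 in turn) and 4561, 5250, 20472, 2533, 2117 and 20623 on the larval arrays, a log2 difference of 0.82 (SE 1.18, 95% interval -1.81 to 3.46, adjusted p = 0.600). The adult arrays fell far apart, with the second arrays of populations 1 and 2 below every larval array and the other 4 above. These 2 arrays were among the 2 lowest adult arrays for 12 and 13 of the 16 peptides. For AttC the same 2 arrays read 2005 and 2271 and the other 4 read 37044 to 53307, and for Mtk they read 5098 and 2083 against 39958 to 63796.

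Which arrays and which fit were used changed the calls on these peptides. With the first array of each population alone, Mtk (log2 3.38, adjusted p = 0.0379), AttC (log2 3.23, adjusted p = 0.0311) and AttA (log2 2.70, adjusted p = 0.0201) were called higher in adults, while over all 12 arrays they differed by 1.93 (SE 1.02, adjusted p = 0.145), 1.64 (SE 1.01, adjusted p = 0.207) and 0.85 (SE 1.06, adjusted p = 0.547). On paired population means AttC was called (adjusted p = 0.0357), and Mtk was called in the fit over all 24 arrays (adjusted p = 0.0417), with the differences as over the 12 arrays. The sources used do not say whether array number marks a batch, and its part in the result was not tested further. Drs and Drsl4 did not share the pattern, whereas Drsl2 did, with 314 and 663 on those 2 adult arrays and 2274 to 10579 on the other 4. Drsl4 read 19415 to 25898 (median 20970) on the adult arrays and 767 to 1184 (median 980) on the larval ones (log2 4.51, SE 0.12, adjusted p = 5.7e-09), and Drsl2 was higher in larvae (log2 -3.88, SE 0.72, adjusted p = 0.00113). Drs itself differed by 1.84 (SE 0.52, adjusted p = 0.0138) with both larval arrays of population 1 at 2896 and 3806 and the other 4 at 12071 or more, and without that population the difference was 0.81 (adjusted p = 0.0726).

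Detoxification was weighted toward larvae. Of 81 cytochrome P450 genes 44 were higher in larvae and 12 in adults, with a median of -1.29. Cyp4d1 read 26799 to 41192 (median 34729) in larvae and 211 to 1041 (median 672) in adults (log2 -5.79, SE 0.34, adjusted p = 4.27e-07), whereas Cyp6a19 read 17886 to 22812 (median 21099) in adults and 284 to 572 (median 477) in larvae (log2 5.50, SE 0.14, adjusted p = 4.29e-09). Glutathione S-transferases were higher in larvae for 15 of 34 and in adults for 5. GstD7 stood at 2955 to 6121 in larvae and 74.3 to 485 in adults (log2 -4.02, SE 0.47, adjusted p = 4.42e-05). GstE1 was higher in adults (log2 1.16, SE 0.29, adjusted p = 0.0063), with 1 adult array at 3374 inside the larval range of 2448 to 4706, and it was not called without population 1 (1.14, adjusted p = 0.0672), without population 3 (0.96, adjusted p = 0.068) or after quantile normalization (0.96).

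Genes listed under oxygen defence showed no single direction in these oxygen-selected flies. The list of superoxide dismutases, catalase, peroxiredoxins and thioredoxins also held Duox and Nox, oxidases that make reactive oxygen and do not remove it. Of its 20 genes 4 were called each way, beside 26.8% toward adults and 15.8% toward larvae over all named genes. The adult calls were the egg thioredoxin dhd, the 2 oxidases and Trxr2. Duox, the dual oxidase of epithelia, read 3687 to 5310 (median 4575) in adults and 412 to 707 (median 507) in larvae (log2 3.11, SE 0.14, adjusted p = 8.61e-08). Gclc, the catalytic subunit of glutathione synthesis, was higher in larvae, with 17767 to 31376 (median 25259) against 8115 to 8876 (median 8640) (log2 -1.55, SE 0.11, adjusted p = 1.81e-06). Of 10 genes of oxygen sensing and globins none (0) was higher in adults and 2 were higher in larvae, fau (log2 -1.61, SE 0.13, adjusted p = 3.53e-06) and the FGF bnl, which guides tracheal branches (log2 -1.75, SE 0.42, adjusted p = 0.00519). Without population 1 bnl was not called (-1.62, adjusted p = 0.0717).

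Heat shock proteins were higher in adults for 9 of 16 and in larvae for 2, with a median of 1.09. The small chaperones Hsp26 and Hsp23 went in opposite directions: Hsp26 read 82784 to 96863 (median 86988) in adults and 8731 to 32978 (median 22748) in larvae (log2 2.18, SE 0.26, adjusted p = 5.29e-05), and Hsp23 24613 to 56752 (median 42198) in larvae and 6476 to 8165 (median 7307) in adults (log2 -2.48, SE 0.17, adjusted p = 1.45e-06). Metallothioneins divided likewise. MtnC differed by 3.75 (SE 0.43, adjusted p = 3.81e-05) with 6607 to 15990 in adults against 333 to 1596 in larvae, and MtnD by -1.82 (SE 0.28, adjusted p = 0.00029) with 18239 to 39972 in larvae against 3807 to 10893.

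A few bright genes hardly differed between the stages. The 14-3-3epsilon signals were 68448 to 72467 in adults and 65492 to 72554 in larvae (log2 0.01, SE 0.08), and betaTub56D, a general beta-tubulin, read 48684 to 52988 against 48381 to 54836 (log2 -0.03, SE 0.08). The other genes with the narrowest intervals around 0 were lqfR, SerRS, Tom7, RpL10Ab, CG9231 and cl. They were chosen for their small differences, so these values are a description of steadiness on the deposited scale and not a test.

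For some genes the stage difference was not the same for all probe sets. Which part of the transcript each of them reads, and whether it reads other transcripts too, was not checked. Among 1094 genes with more than 1 named probe set, 29 (2.65%) had 1 called higher in adults and another called higher in larvae. For hts, the adducin that builds the fusome and ring canals of the ovary, 1 probe set read 7038 to 8847 in adults and 60.2 to 246 in larvae (log2 5.75, SE 0.25, adjusted p = 8.13e-08), while a second read 3292 to 5167 in larvae and 938 to 1336 in adults (log2 -1.80, SE 0.12, adjusted p = 1.26e-06) and another differed by 0.25 (SE 0.14). Of 8 probe sets of trol, the perlecan of basement membranes, the pair with the widest larval excess differed by -3.76 and -3.45 (SE 0.16 and 0.14) and another by 1.11 (SE 0.12). The 15 probe sets of lola, a transcription factor made in many spliced forms, ran from 4.08 (SE 0.16, 16948 to 29456 in adults against 1030 to 1690 in larvae) to -1.25 (SE 0.18, 1193 to 2257 in larvae against 566 to 931 in adults). Probe sets were compared only in their stage difference, never in level.

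Some genes with large stage differences lay side by side. Taking measured genes in RefSeq order along each chromosome arm and those at least 4-fold apart in the same direction, there were 12 runs of 4 or more neighbours higher in adults, holding 55 of 1019 such genes (5.4%), and 19 runs higher in larvae, holding 98 of 993 (9.87%). How many runs chance would give was not computed. The adult runs included the chorion genes Cp18, Cp15, Cp19 and Cp16 on 3L (median log2 9.21), Cp7Fa, Cp7Fc, Cp36, Cp38 and otu on X (median 8.70), Acp53C14a, Acp53C14b, Acp53Ea and Acp53C14c on 2R (median 9.42), and 6 Bomanin genes from BomS4 to BomS6 on 2R (median 3.37). In that last run BomS2 and BomS5 were not called without population 1 (1.19, adjusted p = 0.384, and 1.68, adjusted p = 0.206), and BomS2 not without population 3 (3.40, adjusted p = 0.0585). The larval runs included 9 genes from Ssk through obst-F to CG17147 on 3L (median -6.68), 5 trypsins from lambdaTry to thetaTry on 2R (median -3.07), 5 genes of the Enhancer of split complex on 3R (median -2.59) and the run from CG14265 to ng1 on X (median -9.13). Neighbouring copies of a gene family can share probe sequence, and this was not checked. By arm, 29.2% of 1871 genes on X were higher in adults and 12.2% higher in larvae, beside 26.8% and 15.9% over all arms. On chromosome 4 the shares were 16.9% and 13.8% of 65 genes. No test was made of these shares.

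Within a stage the arrays of a population were hardly more alike than arrays of different populations. Taking medians, arrays of the same population correlated at 0.938 (adults) and 0.945 (larvae), and arrays of different populations at 0.93 and 0.935. For 15039 probe sets with a mean above the 20th percentile, the median SD over the 6 arrays was 0.33 in adults and 0.32 in larvae on the log2 scale, the median gap between the 2 arrays of a population was 0.34 and 0.31, and the median range of the 3 population means was 0.45 in both stages. The genes of the widest spread in adults were edin, AttA, DptB, CecC and AttC, all immune peptides or immune-induced, and the glue gene ng1, which read 2.3 to 228 there.

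Larvae of population 3 stood apart from the other larvae in a set of genes. Both of their arrays were at least 4-fold above the other 4 for 17 probe sets and 4-fold below for 5, while no other population in either stage had more than 3 such probe sets. Amyrel, an amylase relative, read 10732 and 10226 in larvae of population 3 and 453 to 987 in the others. The lipase Lip3 read 11415 and 5694 against 302 to 983, and the chitinase Cht4 read 32501 and 34572 against 818 to 6069. Lower in population 3 were Try29F, a trypsin, at 1606 and 2630 against 16471 to 27427, and Hsp68, at 1678 and 1525 against 6988 to 9000. These genes were picked after their values were seen and only describe how the larvae differed among themselves. CG10073 read 7563 and 16659 there and 46.8 to 430 in the others. It was called higher in larvae (log2 -2.74, SE 1.00, adjusted p = 0.0424), but without population 3 the difference was -0.92 (adjusted p = 0.352), and without population 1 it was -3.44 (adjusted p = 0.0875).

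The sign of the stage difference was mostly the same in the control populations: of the 6501 calls, 6316 had the same sign there. The calls were chosen for their difference in the selected flies, and the share over all probe sets was not computed. The interaction of stage and selection tests where the difference itself was not the same. Selected adults came from the hyperoxia chamber and control adults from room air, and the oxygen level of the larvae is not stated. Selection and the oxygen level at culture therefore cannot be told apart in any interaction given here. At an adjusted p under 0.05 the adult-minus-larva difference, sign included, was greater in the selected populations for 198 probe sets (1.05%) and smaller for 190 (1.01%). That balance moved to 125 and 268 after quantile normalization and to 41 and 309 after centring. With the 2 arrays of each population averaged first, 0 probe sets passed in either direction.

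Among the 8 named genes with the largest positive interaction were the peptides DptB (6.05, SE 1.26, adjusted p = 0.0198), Mtk (5.16, SE 1.09, adjusted p = 0.0204) and CecC (4.97, SE 1.17, adjusted p = 0.0349). In the controls DptB read 260 to 673 in adults and 10265 to 32979 in larvae, a difference of -5.23, where the selected populations had 0.82. CecC did not pass with the floor (3.52, adjusted p = 0.0719). The other 5 read low: CG31741, mwh, Or67d, CG15233 and Hesr had medians of at most 387 in either stage of the selected flies. Or67d did not pass with the floor either, nor Hesr after centring. For mwh, a gene of wing hair polarity, the selected larvae read 21.3 to 267 and the control larvae 605 to 1564, while control adults read 20.3 to 105 and selected adults 54.6 to 73.2 on 5 arrays and 403 on the first array of population 3.

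Among the 8 with the largest negative interaction, CG12057 had overlapping larval signals, 61681 to 91006 in selected and 70038 to 89633 in control larvae, and lower adult signals in the selected populations, 253 to 2868 against 8324 to 16066 (interaction -3.28, SE 0.56, adjusted p = 0.00709). CG7214 turned its sign: the selected larvae read higher than the adults (log2 -1.35) and the control adults higher than the larvae (2.27), an interaction of -3.62 (SE 0.45, adjusted p = 0.000615). Within the selected flies CG7214 was not called without population 1 (-1.36, adjusted p = 0.064). The aspartic protease Bace read 34581 to 88462 in selected and 56227 to 64717 in control adults, but 5602 to 91714 in selected and 2936 to 9012 in control larvae (-2.42, SE 0.48, adjusted p = 0.0156), with 91714 and 74942 again from population 3. The rest of these 8 were CG32834, CG42699, ND-B8, CG14441 and Corin, with interactions of -3.42 to -2.44.

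Of the genes named by the other rules and the organ markers, 9 also passed the interaction test. The stage difference of Hsp23 was -2.48 in the selected populations and less wide in size than in the controls by 1.06 (adjusted p = 0.0333). Negative interactions were found for Hex-C (-2.32, adjusted p = 0.0275), GstD7 (-2.38, adjusted p = 0.0248), Lsp1beta (-2.15, adjusted p = 0.00777), Mal-A3 (-1.20, adjusted p = 0.0318), AkhR (-0.94, adjusted p = 0.0204) and Lsd-1 (-0.79, adjusted p = 0.00963). For tobi, an alpha-glucosidase under insulin-like and adipokinetic control, it was -1.95 (adjusted p = 0.0204) and for the maltase Mal-A4 it was -1.06 (adjusted p = 0.0225).

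**Figure D5:**
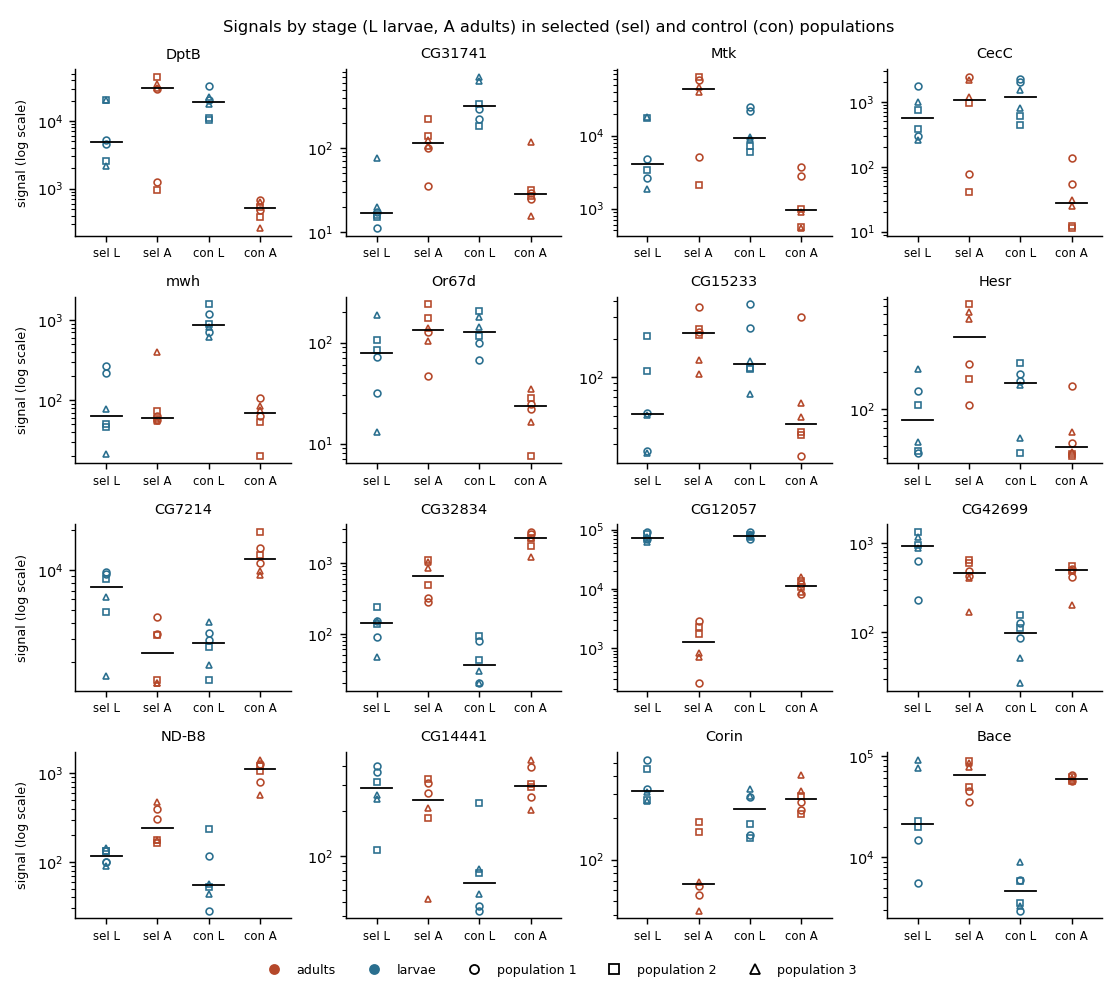
Signal of each array (log scale, a separate axis for each gene) in larvae (blue) and adults (red) of the selected and control populations for the 16 genes with the largest interaction of stage and selection, 8 in each direction. Bars are medians of 6 arrays and symbols mark populations. The selected adults fall into high and low arrays for DptB, Mtk and CecC, and the control adults read low for all 3.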

How the data were processed

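RNA of whole adults and of whole larvae was hybridised to Affymetrix Drosophila Genome 2.0 arrays, 1 sample per array. The authors deposited 1 linear intensity per probe set and array, already scaled so that the trimmed mean was 2500.1 on every array. The methods name model-based expression (dChip) and RMA. The sources used do not say whether either of these gave the deposited intensities.

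Of 18952 probe sets, 183 control sets were left out and 18769 were tested. Names came from the platform annotation, updated through RefSeq: 13646 probe sets had 1 symbol, 402 had several, 4706 had none here, and 15 were named through the gene list of the study, which gave 11996 genes. A gene was read at its brightest probe set. Near-identical gene copies were not checked for cross-hybridization. The number of arrays limits the precision.

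Signals were floored at 1 and taken to log2. Stage and, as a block, population were fitted by lmFit and eBayes of limma (version 3.58.1, R 4.3.3). The Benjamini-Hochberg adjustment ran over all probe sets. A call needed an adjusted p under 0.05 and a 2-fold difference. The labels give the same population in both stages, and its 2 stages are the pair. The deviations of same-numbered populations correlated at 0.00602, 0.0381 and 0.119. The interaction used all 24 arrays with 6 populations as blocks. Alternatives were quantile normalization, median centring, a floor at the 20th percentile (91 units), leaving out dim probe sets, other treatments of population, first or second arrays alone, leaving out each population, and 1 fit over all arrays. Tables and plots were made with Python 3.11.15, numpy 2.4.6, pandas 2.3.3, scipy 1.17.1 and matplotlib 3.10.9, and the scripts were tested on simulated data.

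Named genes were the 12 with the widest non-overlapping difference in each direction after the floor, up to 4 members of each of 48 lists, the 8 genes with the largest interaction in each direction, 8 genes with probe sets in opposite directions, 8 with the narrowest difference around 0, 6 with the widest spread in each stage, and genes the study followed up. Genes outside this rule (organ markers apart) were chosen after their values were seen. The comparison and the lists were chosen with earlier results of these data known.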

Additional observations from a re-analysis of the deposited data

Results flagged for a closer look

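For some named genes 1 of the 6 arrays of a stage lay far from the other 5. The measure is the gap to the nearest array as a share of the whole range, and the limit for 6 arrays is 0.625. Of 396 groups of 6 arrays looked at, 33 passed. About 1 in 20, or 19.8, would pass by chance if the values were normally distributed. The shares were taken on linear signals, for which this was not checked, so no excess over chance is read from the count. The shares follow in brackets. In adults, the first array of population 1 stood above the rest for Cyp313a1 (0.631). In adults, the second array of population 1 stood above the rest for CG13460 (0.649). In adults, the first array of population 2 stood above the rest for Cpr49Ac (0.74), Prx6c (0.784) and Sgs7 (0.744) and below the rest for Pcp (0.687) and br (0.694). In adults, the second array of population 2 stood above the rest for EbpII (0.681) and Obp56g (0.711) and below the rest for GstE1 (0.737). In adults, the first array of population 3 stood above the rest for Drsl2 (0.685), Eig71Eh (0.721), Obp47a (0.769) and mwh (0.947). In adults, the second array of population 3 stood above the rest for Acbp4 (0.732). In larvae, the first array of population 1 stood above the rest for CG34282 (0.792), CG7290 (0.7), Ir31a (0.644), Jon66Ci (0.75) and RpL10Ab (0.76). In larvae, the second array of population 1 stood above the rest for CG34324 (0.917) and Gpdh3 (0.694). In larvae, the first array of population 2 stood above the rest for TotC (0.816) and below the rest for COX7AL2 (0.64). In larvae, the second array of population 2 stood above the rest for Obp51a (0.713) and para (0.813) and below the rest for UGP (0.649). In larvae, the first array of population 3 stood above the rest for CG14645 (0.75) and PPO3 (0.659). In larvae, the second array of population 3 stood above the rest for CG31741 (0.866), GstD4 (0.638), Ir7c (0.694) and Muc68D (0.63). Many of these genes read low in the stage concerned, mwh, Ir31a, Eig71Eh and Obp47a among them.

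For 25 of the named genes and organ markers the stage difference was not the same in selected and control populations by the limma interaction test (adjusted p under 0.05). The adult-minus-larva difference, log2 scale, was greater in the selected populations for DptB (6.05), CG31741 (5.83), Mtk (5.16), CecC (4.97), mwh (4.01), Or67d (3.67), CG15233 (3.23), Hesr (2.96) and Hsp23 (1.06). It was smaller for CG7214 (-3.62), CG32834 (-3.42), CG12057 (-3.28), CG42699 (-3.25), ND-B8 (-2.71), CG14441 (-2.46), Corin (-2.44), Bace (-2.42), GstD7 (-2.38), Hex-C (-2.32), Lsp1beta (-2.15), tobi (-1.95), Mal-A3 (-1.20), Mal-A4 (-1.06), AkhR (-0.94) and Lsd-1 (-0.79). None of the 25 passed with population means, where 0 of all probe sets did.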

How the results depend on the processing

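The counts of calls, 4066 higher in adults and 2435 higher in larvae, stayed within 1.5 times of these values under most settings. The exceptions were the first array of each population alone, with 1579 higher in larvae (2799 in adults), and dropping the fold limit, with 6347 higher in adults. Leaving out 1 population gave 3738 to 3891 calls higher in adults and 2177 to 2326 higher in larvae, and 340 to 343 and 300 to 354 at 16-fold or more. With no population block the calls were 4086 and 2415, with population as a random block 4096 and 2424, and on paired population means, which count 3 pairs, 4012 and 2331.

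Interactions were far less stable. In the selected populations the adult-minus-larva difference, sign included, was greater for 198 probe sets and smaller for 190. Quantile normalization gave 125 in the greater direction, and centring gave 41 and 309. The floor gave 386 and 331, and population means gave 0 in both directions. The cause was not tested.

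Of 198 named genes 172 were called, 132 of them under all 13 alternatives, and no call reversed. Signals under 91 units bound what can be told apart: the floor took the calls of 16-fold or more to 265 and 284. The list medians of odour and taste receptors, respiratory chain, cytosolic ribosomal proteins, insulin pathway and oxygen sensing (0.07 as deposited, -0.12 after quantile normalization) changed sign with the scaling.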

Other observations

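Probe sets with no gene name here also held large stage differences. Of those called, 620 higher in adults and 326 higher in larvae had no name, and at 16-fold or more 28 and 26 had none. The 100 brightest probe sets held 14.6% to 17.5% of the summed signal on the adult arrays and 15.4% to 17.7% on the larval arrays.

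Some genes of the larval and adult body had other levels in the control populations. Lsp1beta read 781 to 4088 in selected adults and 3929 to 9068 in control adults, with larvae at 131569 to 172294 and 129467 to 162280, and its stage difference was larger in size in the selected populations by an interaction of -2.15 (SE 0.37, adjusted p = 0.00777). The 3 flight muscle markers read lower in selected than in control adults without overlap. Act88F read 847 to 2972 in selected adults and 7081 to 15581 in control adults (interaction -1.65, SE 0.82, adjusted p = 0.299), fln 317 to 1131 and 3472 to 9499 (-1.94, SE 0.91, adjusted p = 0.269), and TpnC4 127 to 1299 and 4029 to 9496 (-2.74, SE 0.94, adjusted p = 0.134). With the floor the interactions of fln (-2.41, adjusted p = 0.027) and TpnC4 (-3.71, adjusted p = 0.000769) passed and that of Act88F (-1.84, adjusted p = 0.155) did not. These genes were singled out after their values were seen.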
